A study of Homo sapiens with 6 samples.

Results

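Aminoacyl-tRNA synthetases are the enzymes that join each amino acid to its tRNA. In human cells 1 set of genes serves the cytosol and a second set, also encoded in the nucleus, serves the mitochondrial matrix. The 36 genes described here were chosen by symbol from the 18780 genes of the table: 20 genes of the cytosolic set, 2 of which (GARS and KARS) serve both compartments, and 16 of the mitochondrial set. All 36 genes had a mean of at least 1 TPM (a transcript level scaled by transcript length and library total) and were therefore among the 12018 genes tested. PC-3, a line from a human prostate cancer metastasis, was grown in DMEM/F12 with 10% serum and was given for 24 h either 2.5 µM trans-Gnetin H (TGH), which is built of 3 resveratrol units (n = 3 libraries), or the solvent DMSO (n = 3 libraries). Per the title, the study concerns glucose deprivation of advanced prostate cancer cells by this compound. The labels do not say whether the 3 libraries of a group came from separate cultures, so p-values measure only the spread between these libraries.

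Charging is the step that sets which amino acid a codon is read as. Several cytosolic synthetases sit together in the multisynthetase complex, a particle held by the scaffold proteins AIMP1, AIMP2 and EEF1E1. The others are not part of it. When an amino acid runs short, uncharged tRNA activates the kinase GCN2 (EIF2AK4), and stress of the endoplasmic reticulum activates another kinase of the same family. Both raise translation of ATF4, a transcription factor whose known targets include many cytosolic synthetase genes.

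The 6 libraries were not alike in their zeros. Between 1342 and 1530 genes were listed at 0 in the 3 TGH libraries and DMSO replicate 3, against 3074 and 3185 in DMSO replicates 1 and 2. The depth of the libraries cannot be read from TPM. No synthetase gene was listed at 0 in any library. The epithelial markers KRT8, KRT18 and EPCAM were abundant, with means of 604, 578 and 181 TPM in the DMSO libraries and of 424, 421 and 166 TPM in the treated ones. Of markers of other cell types, PTPRC (leukocytes) and PECAM1 (endothelium) were at most 0.129 and 0.299 TPM in any library, and COL1A1 (fibroblasts) averaged 3.39 ± 0.143 TPM in the DMSO libraries and 2.75 ± 0.189 TPM in the treated ones. All 3 epithelial markers and COL1A1 were called lower with TGH (limma log2 differences -0.51, -0.45, -0.13 and -0.23; highest adjusted p = 0.017). The part of these differences in the results below was not tested.

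Cytosolic synthetase transcripts were mostly higher with TGH, and mitochondrial ones were mostly not called. AARS, which charges alanine, had the largest rise, by 1.05 on the log2(TPM + 1) scale, and TARS2, the mitochondrial threonine enzyme, the largest fall, by 0.29. Of the 20 cytosolic genes 12 were higher, 4 were lower and 4 were not called (limma with Benjamini-Hochberg adjustment over all genes, call at an adjusted p under 0.05). Of the 16 mitochondrial genes 1 was higher, 5 were lower and 10 were not called. Among all genes tested 55.2% were called, 28.9% higher and 26.3% lower, so a single call is common in this comparison. The share called higher was 60.0% for the cytosolic genes and 6.25% for the mitochondrial genes. The share called lower was 31.25% for the mitochondrial genes, close to the 26.3% of all genes. For the cytosolic genes it was smaller than among all genes. The counts of lower calls are therefore no result about either set. The median difference was 0.24 for the cytosolic genes, -0.01 for the mitochondrial genes and 0.02 over all genes. With DMSO replicate 3 as the only control, which leaves out the libraries with many zeros, 12 cytosolic genes were higher and 4 lower, and 2 mitochondrial genes were higher and 4 lower. Part of the cytosolic result was known when the genes were chosen, and the difference between both sets was not tested as such.

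**Figure D1:**
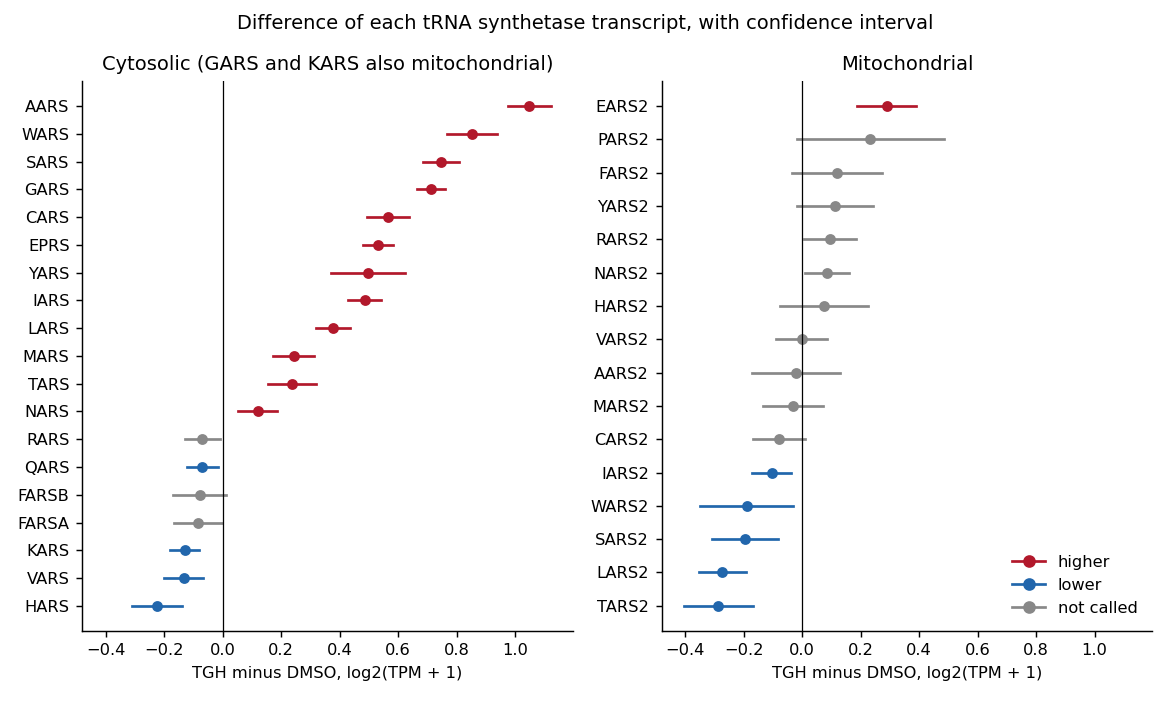
Difference between TGH and DMSO for the genes reported singly on the log2(TPM + 1) scale (x axis), cytosolic genes on the left and mitochondrial genes on the right. Points are limma estimates from 3 against 3 libraries and bars their 95% intervals; AARS at 1.05 is the highest, and 12 cytosolic genes against 1 mitochondrial gene are called higher.

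The summed level went up for the cytosolic set and slightly down for the mitochondrial set, and it leans on the genes with high levels. The 20 cytosolic genes added up to 1371, 1328 and 1346 TPM in DMSO replicates 1 to 3 and to 1647, 1651 and 1658 TPM in TGH replicates 1 to 3, a mean change of 22.5%. The 16 mitochondrial genes added up to 332, 327 and 336 TPM in DMSO and to 318, 319 and 317 TPM with TGH, a mean change of -4.11%. In it IARS2 went from a mean of 106 to 98.4 TPM and TARS2 from 32.5 to 26.4 TPM. Taken singly, 9 mitochondrial genes had a difference below 0 and 7 above, and 8 cytosolic genes below and 12 above. The sums thus do not describe each gene of their set. In neither the cytosolic nor the mitochondrial sum did the groups overlap. Of all tested genes 64.4% had groups that did not overlap, so this is common for a single gene, also for those named below. The ratio of the cytosolic to the mitochondrial sum went from 4.07 ± 0.0641 to 5.20 ± 0.0349 (SD, n = 3).

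**Figure D2:**
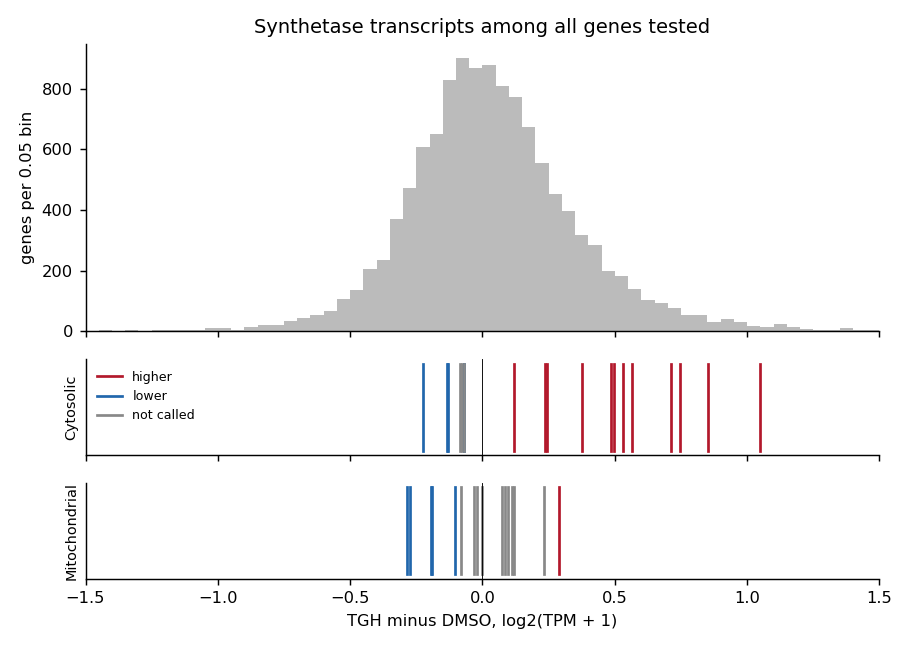
Top, number of tested genes per bin of 0.05 in the difference between TGH and DMSO on the log2(TPM + 1) scale, with 80 genes beyond 1.5 in either direction not drawn. Below, 1 line for each cytosolic and mitochondrial synthetase gene reported singly, at its own difference; the cytosolic lines reach 1.05 and the mitochondrial lines lie between -0.29 and 0.29.

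The 5 largest rises were those of the cytosolic genes AARS, WARS, SARS, GARS and CARS. AARS was at 52.5, 49.1 and 49.6 TPM in DMSO replicates 1 to 3 and at 105, 106 and 105 TPM in TGH replicates 1 to 3. Every TGH library thus lay far above every DMSO library, at 2.07-fold on the log2(TPM + 1) scale (difference 1.05, SE 0.031, limma adjusted p = 2.2e-06). In the order of rises over all tested genes AARS took place 150.

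WARS charges tryptophan and is also known as an interferon-induced gene. It was at 29.6, 27.2 and 28.7 TPM in DMSO and at 51.4, 52.7 and 52.9 TPM with TGH (difference 0.85, SE 0.036, limma adjusted p = 9.1e-06). In DMSO it was at the bottom of the cytosolic set, within its spread of CARS, and with TGH it lay above CARS, RARS and HARS and within its spread of LARS. SARS, which charges serine and also provides the serine later turned into selenocysteine, was at 97.1, 99.8 and 94.1 TPM in DMSO and at 164, 163 and 163 TPM with TGH (difference 0.74, SE 0.026, limma adjusted p = 4.3e-06). With TGH it had the highest level of all 36 genes.

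CARS, for cysteine, was at 28.9, 30.6 and 29.0 TPM in DMSO and at 43.9, 44.3 and 44.1 TPM with TGH (difference 0.57, SE 0.030, limma adjusted p = 2.0e-05). Its groups did not overlap, and the 3 TGH values lay closer to each other than the DMSO values. EPRS, a fusion protein that charges both glutamate and proline, rose by 0.53 from 90.6 ± 1.32 to 131 ± 1.11 TPM. YARS, for tyrosine, rose by 0.50 from 45.0 ± 3.36 to 63.8 ± 0.843 TPM, the widest spread in DMSO among the genes that rose by more than 0.3. IARS, for isoleucine, rose by 0.49 and LARS, a leucine enzyme also known as a leucine sensor for mTORC1, by 0.38. Smaller rises were those of MARS (methionine, 0.24), TARS (threonine, 0.24) and NARS (asparagine, 0.12). The adjusted p of these 7 genes ran from 6.8e-06 for EPRS to 0.0099 for NARS.

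GARS and KARS each supply both compartments from 1 gene, and they went opposite ways. GARS, for glycine, was at 75.5, 73.7 and 74.6 TPM in DMSO and at 124, 122 and 122 TPM with TGH (difference 0.71, SE 0.021, limma adjusted p = 2.2e-06). KARS, for lysine, was at 105, 107 and 105 TPM in DMSO and at 96.6, 95.0 and 97.4 TPM with TGH (difference -0.13, SE 0.021, limma adjusted p = 0.0020). Both genes had groups that did not overlap, and both calls held under each of the 16 alternative settings.

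Besides KARS, 3 cytosolic genes were lower. HARS, for histidine, was at 36.2, 34.2 and 36.5 TPM in DMSO and at 30.1, 31.2 and 29.7 TPM with TGH (difference -0.22, SE 0.036, limma adjusted p = 0.0020). All its TGH values lay below all its DMSO values, and with TGH it was the lowest of the cytosolic set. VARS, for valine, fell by 0.13 (limma adjusted p = 0.0064). QARS, for glutamine, had -0.07 (adjusted p = 0.032), a call lost under 9 of 16 settings, among them without DMSO replicate 2 (adjusted p = 0.0747), DMSO replicate 3 (0.0697) or TGH replicate 1 (0.0869), 2 (0.0937) or 3 (0.0545).

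Among the uncalled cytosolic genes FARSA, FARSB and RARS had narrow intervals, given here without adjustment for the number of genes. FARSA and FARSB encode the catalytic and the other subunit of the same phenylalanine enzyme, and they had -0.08 (95% interval -0.17 to -0.0037) and -0.08 (-0.17 to 0.01). RARS, for arginine, had -0.07 (-0.13 to -0.0086). FARSA was called lower without TGH replicate 2 (adjusted p = 0.0361), and FARSB without DMSO replicate 2 (0.0171). Under median scaling, which sets all libraries to the same median, FARSA, FARSB and RARS were all called lower, so that 7 cytosolic genes were lower and still 12 higher.

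Groups within the cytosolic set both held genes of either direction. Among all tested genes 28.9% were called higher and 26.3% lower. The share lower was no larger in any group below, so their lower calls are no result about these groups. Of the 8 genes of the multisynthetase complex EPRS, IARS, LARS and MARS were higher, KARS and QARS were lower, and 2 were not called, with a median of 0.12 and a largest value of 0.53. Of the 12 genes outside the complex 8 were higher, 2 lower and 2 not called, with a median of 0.37. The difference between these groups was not tested. Synthetases also fall into 2 unrelated structural classes: among 9 cytosolic genes of class I 6 were higher and 2 lower (median 0.38), and among 10 of class II 5 were higher and 2 lower (median 0.06), EPRS having a domain of each. Level and difference showed little relation across the 20 cytosolic genes (Spearman's rho 0.02, a description over genes of the same libraries). Across the 16 mitochondrial genes rho was -0.29, also without a test.

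**Figure D3:**
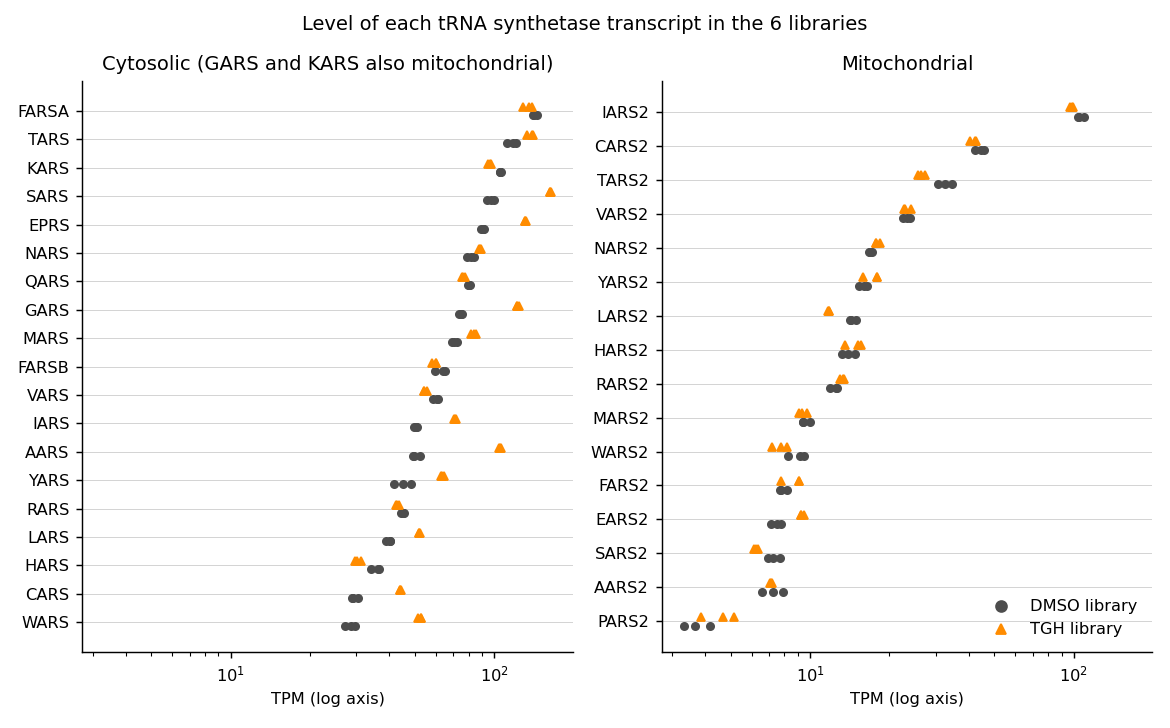
Level of the genes reported singly in TPM on a log axis, with 1 point for each of the 3 DMSO libraries (circles) and 3 TGH libraries (triangles), genes ordered by their DMSO level. FARSA at 143 TPM heads the cytosolic genes in DMSO and IARS2 at 106 TPM the mitochondrial ones; the TGH triangles of AARS, WARS, SARS and GARS stand apart to the right.

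The promoters of the cytosolic genes are shown because most of the higher genes with a window hold a short sequence there that few other promoters hold. Windows from 250 bases before to 50 bases after a gene's start were taken from RefSeq (build GRCh38.p14). They were found for 30 of the 36 genes, several with more than 1 start, and were searched on both strands for TGATGNAA, the core of the element that ATF4 binds with C/EBP partners. Of 27305 genes with a window, 4.46% held it. It was in the windows of 7 of 16 cytosolic genes (43.8%) and of 1 of 14 mitochondrial genes (7.14%). The 7 cytosolic genes were AARS, GARS, CARS, IARS, MARS, TARS and NARS, all called higher. They are 7 of the 10 cytosolic genes that were higher and had a window, against 0 of the 6 that were lower or not called and had one. At 4.46% of all genes, 0 of 6 is the usual outcome, so it does not set those 6 apart from genes at large. The higher genes also had more windows searched per gene: 7 of their 15 windows held the match (46.7%), against 0 of 6 windows of the others and 3.62% of all windows. The windows were searched with these differences known, so this is a description without a test, and a match of letters is not evidence of binding. The 3 higher genes with a window and no match were EPRS, SARS and WARS. Each 30-base stretch below runs 5′ to 3′ on the gene's strand with the match in capitals, and a match on the opposite strand reads TTNCATCA.
AARS, chr16:70289675-70289704, minus strand: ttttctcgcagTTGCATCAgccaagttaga
GARS, chr7:30594834-30594863, plus strand: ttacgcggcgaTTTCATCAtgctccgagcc
CARS, chr11:3057407-3057436, minus strand: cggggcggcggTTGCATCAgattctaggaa
IARS, chr9:92293692-92293721, minus strand: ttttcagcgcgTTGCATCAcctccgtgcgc
MARS, chr12:57488053-57488082, plus strand: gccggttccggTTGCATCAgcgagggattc
TARS, chr5:33440956-33440985, plus strand: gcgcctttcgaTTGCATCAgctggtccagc
NARS, chr18:57621804-57621833, minus strand: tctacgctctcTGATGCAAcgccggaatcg
YARS2, chr12:32756076-32756105, minus strand: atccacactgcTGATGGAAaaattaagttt

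In 6 of the 7 cytosolic matches the open letter N was C, read on the strand of the motif, and GARS was the exception. That form, singled out after the matches were seen, was in the windows of 1.08% of all genes and of 0 of the 14 mitochondrial genes. The match lay close to a start in most of these genes. It was 33 bases before a start of GARS, 13 before that of IARS, 4 before that of MARS and 2 before a start of CARS. It was 2 bases after a start of TARS and 14 after that of NARS. GARS, CARS and TARS have more than 1 start, and the match was in the window of only 1 of them. In AARS, the gene with the largest rise, it lay 187 bases before the start, and in YARS2, which was not called (0.11, adjusted p = 0.12), 197 bases before. The 250 bases before the start of AARS are shown for this context.
AARS, chr16:70289507-70289756, minus strand: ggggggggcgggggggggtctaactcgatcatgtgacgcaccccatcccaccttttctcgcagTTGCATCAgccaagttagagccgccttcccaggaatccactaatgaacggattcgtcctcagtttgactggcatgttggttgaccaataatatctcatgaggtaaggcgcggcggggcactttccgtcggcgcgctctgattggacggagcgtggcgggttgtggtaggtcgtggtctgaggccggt

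A pair of other elements was searched in the same windows. The endoplasmic reticulum stress element, searched in its full consensus with a spacer, was in none of the 30 genes' windows and in 0.0916% of all genes. At that share no match is the usual outcome for 30 genes, so it does not set them apart from genes at large. The E-box CACGTG, which MYC binds, was in the windows of 1 of 16 cytosolic genes (IARS) and of 3 of 14 mitochondrial genes (MARS2, CARS2 and EARS2), against 8.77% of all genes.

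The mitochondrial set moved little. TARS2 was at 32.4, 30.5 and 34.5 TPM in DMSO and at 26.3, 27.2 and 25.7 TPM with TGH (difference -0.29, SE 0.049, limma adjusted p = 0.0028). LARS2, the leucine enzyme, was at 14.9, 14.3 and 14.2 TPM in DMSO and at 11.8, 11.8 and 11.7 TPM with TGH (difference -0.27, SE 0.034, limma adjusted p = 0.00065). In both genes every TGH value lay below every DMSO value, and both calls held under all 16 alternatives.

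The other 3 falls of the mitochondrial set were less firm. SARS2, the serine enzyme, was at 7.23, 6.92 and 7.69 TPM in DMSO and at 6.32, 6.26 and 6.12 TPM with TGH (difference -0.19, limma adjusted p = 0.012), and its call was lost without TGH replicate 3 (adjusted p = 0.0509). In the GENCODE 29 transcripts 71.9% of its 50-base stretches are also part of a readthrough gene model, so its reads may be split. WARS2, the tryptophan enzyme, was at 9.50, 8.22 and 9.15 TPM in DMSO and at 8.21, 7.77 and 7.20 TPM with TGH (difference -0.19, limma adjusted p = 0.047). Its groups were separated by the narrow gap between DMSO replicate 2 and TGH replicate 1, and 8 of 16 settings lost the call, among them each omission of DMSO replicate 1 (adjusted p = 0.112) or 3 (0.117) or of TGH replicate 1 (0.0501), 2 (0.105) or 3 (0.147). IARS2, for isoleucine, fell by 0.10 from 106 ± 3.11 to 98.4 ± 1.38 TPM (limma adjusted p = 0.017, but 0.062 without TGH replicate 2). It had the highest level of its set in either group.

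EARS2, which charges the mitochondrial glutamate tRNA, was the only mitochondrial gene called higher. It was at 7.09, 7.50 and 7.75 TPM in DMSO and at 9.27, 9.45 and 9.22 TPM with TGH (difference 0.29, SE 0.042, limma adjusted p = 0.0014), without overlap and under all 16 alternatives. EARS2 also puts glutamate on the mitochondrial glutamine tRNA, which the amidotransferase of QRSL1, PET112 and GATC then converts. Those 3 genes had 0.04, -0.01 and 0.06, and none was called (adjusted p from 0.399 to 0.916).

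For the 10 uncalled mitochondrial genes the data bound the difference rather than show it to be absent. The intervals were tight for VARS2 (-0.09 to 0.09) and MARS2 (-0.13 to 0.07), and wide for PARS2 (-0.02 to 0.48), the lowest gene of all 36 at 3.73 TPM in DMSO. AARS2, the counterpart of the gene with the largest rise, had 7.25 ± 0.668 TPM (DMSO) and 7.11 ± 0.0773 TPM (TGH), with an interval from -0.17 to 0.13. CARS2, FARS2, HARS2, NARS2, RARS2 and YARS2 had -0.08, 0.12, 0.07, 0.09, 0.10 and 0.11. Single libraries decided some of these calls: FARS2 was called higher without TGH replicate 2 (adjusted p = 0.0251), PARS2 (0.0368) and YARS2 (0.0281) without TGH replicate 3, and CARS2 lower without DMSO replicate 3 (0.0499). Without TGH replicate 2 the mitochondrial counts were 2 higher and 3 lower, and without TGH replicate 3 they were 3 higher and 3 lower.

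Each mitochondrial gene was then set against the cytosolic gene for the same amino acid, library by library. In 10 of 16 pairs the cytosolic gene stood higher relative to its partner in every TGH library than in any DMSO library, in 3 pairs it stood lower, and in 3 the groups overlapped. Taken singly, 12 cytosolic genes lay higher and 6 lower in every TGH library than in any DMSO library, and 3 and 5 mitochondrial genes did, against 33.6% and 30.8% of all tested genes (64.4% in either direction). Those shares are for single genes. No share was taken over pairs of other genes, so the pair counts are a description and no result about the pairing. The test was an exact permutation test, two-sided, of the difference in log2(TPM + 1) between partners; with 3 against 3 libraries its smallest possible p is 0.1. The 13 pairs without overlap all had an exact permutation p = 0.1, or 0.123 after adjustment over the 16 pairs, so no pair could pass a threshold of 0.05.

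The pairs for alanine, tryptophan and serine diverged most. The TPM of AARS was 7.99, 6.20 and 6.83 times that of AARS2 in DMSO replicates 1 to 3 and 14.9, 14.7 and 14.8 times with TGH. For WARS over WARS2 the ratio went from 3.19 ± 0.108 to 6.79 ± 0.540, and for SARS over SARS2 from 13.4 ± 1.10 to 26.2 ± 0.386 (SD, n = 3). LARS over LARS2, where LARS rose and LARS2 fell, went from 2.75 ± 0.0557 to 4.41 ± 0.0528.

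Cysteine and isoleucine were the 2 pairs in which the mitochondrial gene had the higher level in DMSO. CARS was at 0.634, 0.686 and 0.684 times the TPM of CARS2 in DMSO and at 1.09, 1.05 and 1.03 times with TGH, so that the order of both genes turned over in all 3 TGH libraries. IARS stood at 0.483, 0.494 and 0.453 times IARS2 in DMSO and at 0.716, 0.726 and 0.723 times with TGH, and IARS2 kept the higher level.

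In the pairs for histidine, arginine and valine the ratio was lower in every TGH library. HARS over HARS2 went from 2.59, 2.58 and 2.47 in DMSO to 2.21, 2.05 and 1.90 with TGH. The starts of HARS and HARS2 lie 85 bases apart on opposite strands in the RefSeq table, so both genes share a divergent promoter region, and HARS had -0.22 and HARS2 0.07 (95% interval -0.07 to 0.22). RARS over RARS2 went from 3.64 ± 0.132 to 3.23 ± 0.0478 and VARS over VARS2 from 2.58 ± 0.0352 to 2.35 ± 0.0366. The overlapping pairs were FARSA with FARS2, NARS with NARS2, and EPRS with PARS2. EPRS is counted in 2 pairs, since it also faces EARS2, where the ratio went from 12.2 ± 0.728 to 14.1 ± 0.248 although EARS2 rose too.

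**Figure D4:**
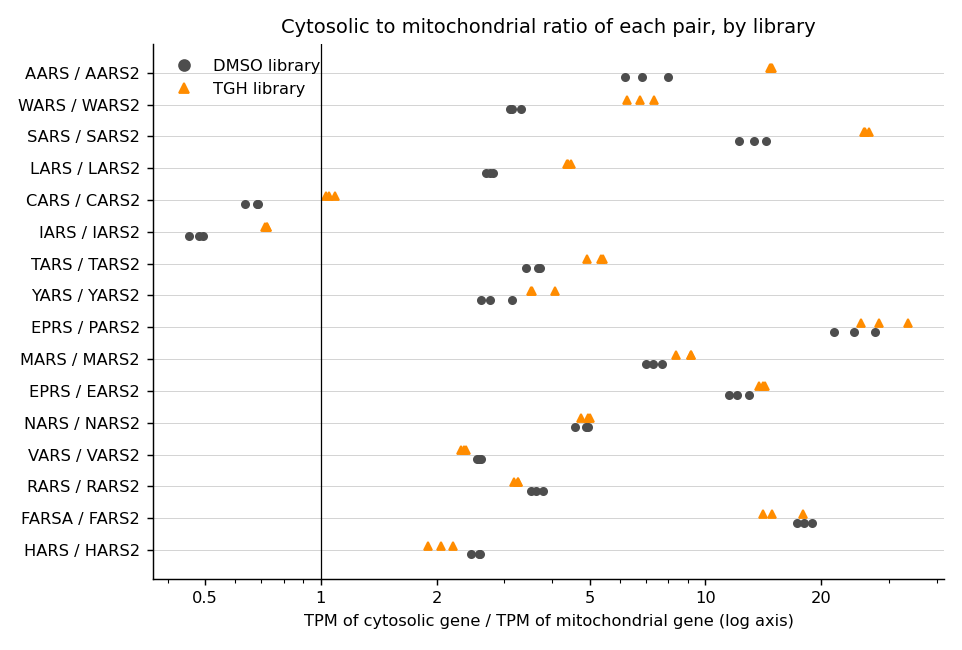
Ratio of the TPM of each cytosolic gene to that of its mitochondrial partner on a log axis, with 1 point for each DMSO (circles) and TGH (triangles) library, pairs ordered by the change on the log2(TPM + 1) scale. AARS over AARS2 moves from a mean of 7.00 to 14.8, CARS over CARS2 crosses 1, and HARS over HARS2 lies lower with TGH.

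Other genes that handle tRNA were measured from a list chosen by role. Of 25 genes 5 were higher, 7 were lower and 13 were not called, with a median of -0.01. The share called was 48.0%, against 55.2% of all tested genes, and the share lower was 28.0%, against 26.3%, so the counts are no result about this list. The 3 scaffolds of the multisynthetase complex were all below 0: AIMP2 fell by 0.12 (limma adjusted p = 0.034), while AIMP1 had -0.18 (0.064) and EEF1E1 -0.07 (0.21). XPOT, which exports tRNA from the nucleus, rose by 0.58 from 49.1 ± 1.77 to 73.9 ± 1.0 TPM (limma adjusted p = 2.2e-05). ELAC2, which trims the 3′ end of tRNA precursors, fell by 0.31 (limma adjusted p = 0.00063).

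Of the elongation factors that bring charged tRNA to the ribosome, EEF1A2 fell by 0.32 (limma adjusted p = 0.00018), and EEF1A1, whose reads can be shared with near-identical pseudogenes, rose by 0.07 (0.0020). The mitochondrial factor TUFM fell by 0.11 (limma adjusted p = 0.0040) and its exchange factor TSFM by 0.20 (0.011). The transcript of ATF4, whose translation both kinases named above raise, rose by 0.60 from 166 ± 6.53 to 252 ± 0.954 TPM (limma adjusted p = 1.6e-05). ASNS, the asparagine synthetase that ATF4 is known to activate, rose by 1.52 from 26.5 ± 1.19 to 78.0 ± 1.98 TPM (limma adjusted p = 1.4e-06). EIF2AK4, the kinase GCN2 itself, fell by 0.12 (limma adjusted p = 0.0057). GCN1L1, listed with it for the sensing of uncharged tRNA, had -0.01 and was not called (limma adjusted p = 0.75). Transcript levels do not show the activity of either kinase or the charging of any tRNA, which were not measured here.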

How the data were processed

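The authors deposited 1 table of log2(TPM + 1) values with 6 libraries as columns; that it holds TPM is per the file headers and name, and the offset of 1 follows from a smallest value of exactly 0. Per the labels' protocols, ribosomal RNA was removed and the libraries keep the strand. Reads were placed on hg19, per the submitters' processing notes, and no aligner, quantifier or annotation is named (not given in the sources used here). Groups follow the labels.

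The 12018 of 18780 genes whose mean reached 1 TPM were tested with limma 3.58.1 in R 4.3.3 (variance trend, two-sided, Benjamini-Hochberg adjustment over these genes), a step tested on simulated data; the offset of 1 makes the differences of low genes too small. TPM is 2 to the power of the deposited value, minus 1. The members, gene lists and motifs were chosen with earlier results of these data known. The values of 1 member and of 1 marker are not reported here, though the member is in all counts. The other members are named, and of the related genes mainly the 6 with the smallest p. AIMP1, AIMP2, EEF1E1, QRSL1, PET112, GATC, TUFM, TSFM, EIF2AK4 and GCN1L1 were named after their values were seen. Promoter windows come from RefSeq, and shared 50-base stretches from GENCODE 29 transcripts. Alternatives were other pseudocounts, filters, scalings and variance settings, a replicate block, omission of each library, and DMSO replicate 3 as the only control. Figures were drawn with matplotlib 3.10.9.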

Additional observations from a re-analysis of the deposited data

How the results depend on the processing

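The 12 cytosolic genes called higher and EARS2 kept their call under all 16 alternatives, and so did 5 of the 9 genes called lower (HARS, KARS, VARS, LARS2 and TARS2). Of the 14 uncalled genes 9 were called under at least 1 alternative. The median of the cytosolic genes lay between 0.21 and 0.27. Under median scaling 7 cytosolic genes were lower, and the mitochondrial median was -0.044. The number of mitochondrial genes called higher was 2 without the filter on low values, with a mean of at least 5 TPM and against DMSO replicate 3 alone, a fit that takes its spread from TGH libraries only and applies it to the control. Leaving out each library in turn gave 1 to 3 mitochondrial genes higher, 3 to 5 lower and a mitochondrial median from -0.027 to 0.0076, so its sign is not fixed (it lay above 0 without DMSO replicate 1 or 2 and without TGH replicate 3). With the replicate number as a block 12 cytosolic genes were higher and QARS lost its call (-0.07, adjusted p = 0.0655). Whether libraries with the same number belong together is not known. Their deviations correlated at 0.00877, 0.0544 and 0.228 for numbers 1 to 3. Those of libraries with different numbers correlated at -0.158 to 0.0956. The count of pairs standing higher in every TGH library was 10 or 11. Depth is unknown, so how far it limits the low mitochondrial genes was not tested.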
